A study of Mus musculus with 3 samples.

Results

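Marrow fibroblasts marked by Clec3b and Dpt were 56 of the 8336 cells kept from 3 single-cell RNA libraries of sorted mouse bone marrow. A cell was a member when it had at least 1 unique molecular identifier (UMI, a tag that counts each captured RNA molecule a single time) in at least 4 of the 6 genes Clec3b, Pi16, Dpt, Mfap5, Cd248 and Igfbp6. It also had fewer than 30 Cxcl12 UMIs per 10000, fewer than 5 Ibsp UMIs per 10000 and no Ptprc UMI. The members were therefore chosen by measured values of these 9 genes. Barcodes were kept from 500 genes and 1000 UMIs upward when no more than 10% of their UMIs were mitochondrial. LepR+ stromal cells, the main stromal class of these libraries, served for comparison and numbered 3754 (at least 30 Cxcl12 UMIs per 10000 and at least 1 Lepr UMI).

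The study compared C57BL/6 mice of 6 to 8 weeks in 3 groups with 1 library each: wild type (WT), R76W and D130. Per the series' design text, the R76W transgene inhibits gap junctions of connexin 43 in osteocytes, and the Δ130–136 transgene, read here as D130, blocks its gap junctions and hemichannels in osteocytes. The promoter of the transgenes and the number of mice behind each library are not given in the sources used here. Cells flushed from the marrow and cells freed from the remaining bone by collagenase were sorted after staining for PDGFRα, CD51, CD31, Ter119 and CD45; the gates are not given in the sources used here.

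Fibroblasts of connective tissue build and maintain the extracellular matrix. Across many organs, one fibroblast state that lies around vessels and in fascia carries Pi16, Dpp4, Cd55 and Sema3c and is often described as a reserve for other fibroblasts, while another, within the tissue proper, carries Col15a1, Penk and Smoc2. LepR+ stromal cells, by contrast, wrap the marrow sinusoids and supply blood stem cells with Cxcl12 and Kitl.

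WT gave 28 fibroblasts, R76W 17 and D130 11. They were 0.641% of the kept WT cells (exact Clopper-Pearson 95% interval 0.426 to 0.925), 0.950% of those of R76W (0.554 to 1.52) and 0.506% of those of D130 (0.253 to 0.903). Erythroid cells made up 2117, 329 and 613 of the kept cells in that order, and without them the shares were 1.24%, 1.16% and 0.704%. The order of the libraries thus changed with the denominator, and the intervals overlapped under both. With 1 library per genotype and a sort before sequencing, no comparison of abundance between genotypes can be tested.

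The summed fibroblasts of WT, R76W and D130 held 306684, 174339 and 137902 UMIs. A fibroblast had a median of 9550.5 UMIs (3023 to 39358), against 7305 in LepR+ cells. At an equal depth of 3000 UMIs per cell, the median number of genes was 1508.5 in fibroblasts and 1681 in LepR+ cells. Pairs of libraries shared 4, 6 and 8 cell barcodes, and no fibroblast was among them. All intervals below cover counting error only, since 1 library per genotype leaves the spread between mice unmeasured.

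One member stood apart. The WT fibroblast with the most UMIs, 39358, carried 3.78% hemoglobin UMIs and was the one member with Klf1, Slc4a1 and Rhag, genes of red cell precursors. It held 12.8% of the UMIs of the WT fibroblasts. Scrublet, a caller that scores each cell against simulated pairs, marked no WT cell at its automatic threshold. The 3.50% of WT cells with the highest scores were therefore taken as doublet calls, and this cell was among them. That cut took 1 further fibroblast, also in WT. R76W and D130 kept the automatic threshold, which marked 0.838% and 1.47% of their cells and no fibroblast. Counts of genes called between genotypes are given below with and without the first cell. For single genes this is done for some only, and the other levels include that cell.

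The 6 genes that chose the members were not evenly present. Igfbp6, which binds insulin-like growth factors, had a UMI in 53 of the 56 cells, Clec3b (tetranectin, a plasminogen-binding secreted lectin) in 54, Mfap5 (a microfibril protein) in 52, Dpt (dermatopontin, a collagen-binding matrix protein) in 49 and Cd248 (endosialin, a surface glycoprotein of stromal cells) in 49. Pi16, a secreted peptidase inhibitor, had one in 14, and a single R76W cell held 57.0% of its UMIs. Igfbp6 stood at 4343, 3585 and 3967 CPM in the summed fibroblasts of WT, R76W and D130, where CPM is a gene's UMIs per 1000000 UMIs of the class. At equal depth, the shares of LepR+ cells with a UMI of any of the 6 genes were at most 1.76% (Cd248), and in erythroid cells at most 0.199%.

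The rule left few cells near its limits. Among the members, 19 had 4 of the 6 genes, 27 had 5 and 10 had all 6, while 7 cells with 3 genes lay just outside. Of 59 kept cells with at least 4 genes, 3 were left out by the other conditions. The highest Cxcl12 value in a fibroblast was 14.0 per 10000, and 22 of the 56 cells had no Cxcl12 UMI. The lowest in a LepR+ cell was 30.1, a gap that the rule allows but does not force below 30. Of barcodes outside the limits on quality, 1 carried at least 4 of the genes.

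Fibroblasts and LepR+ cells differed in many genes outside the rule. A gene is called here when its level differed at least 2-fold, on the scale of CPM plus 10, in the same direction in each of the 3 libraries, among 14056 genes with at least 30 UMIs over both classes. This gave 428 genes higher in fibroblasts (3.04% of those tested) and 940 lower (6.69%). Because the rule chose both classes by genes of the same contrast, these are descriptions with no test. The median log2 ratio over all tested genes was -0.18. Log2 ratios, calls and ranks are on the CPM plus 10 scale, while ratios given as folds with an interval are of CPM with nothing added. Lepr, which chose the LepR+ cells, is among the 940.

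**Figure D1:**
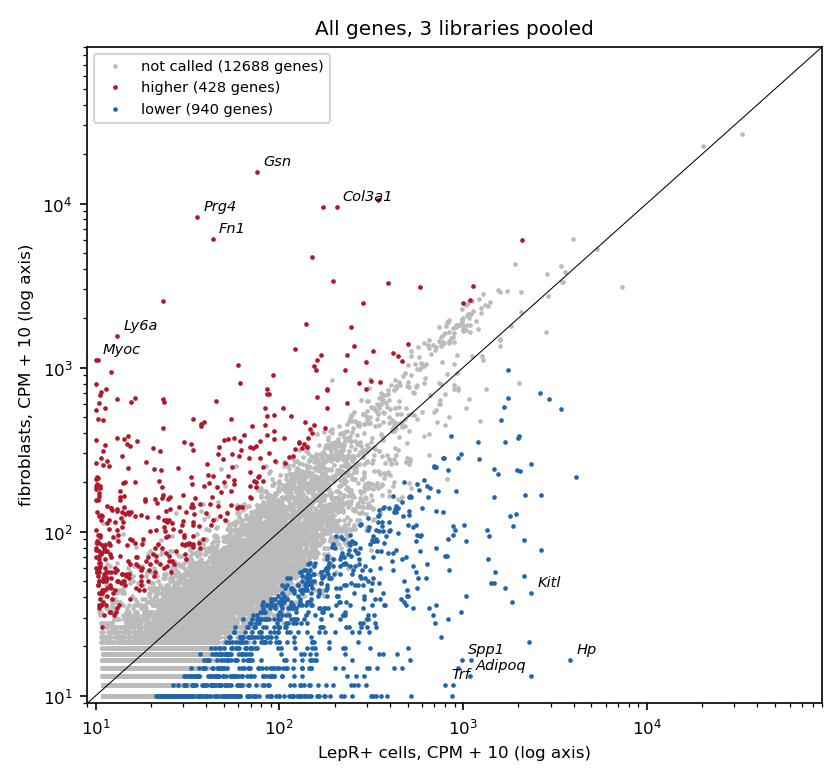
Each point is 1 of 14056 genes, with its level in the summed LepR+ cells on the x axis and in the summed fibroblasts on the y axis (CPM plus 10, log axes, 3 libraries pooled, line of equality drawn). The 428 genes called higher lie above the line, with Gsn, Prg4 and Fn1 among them, and the 940 called lower lie below it, with Hp, Adipoq and Kitl among them.

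Several of the 20 genes with the highest ratios encode matrix proteins. Gsn, gelsolin, an actin-severing protein that is also secreted into plasma, stood at 11696, 17753 and 20986 CPM in the fibroblasts of WT, R76W and D130, against 62.5, 65.3 and 68.7 CPM in LepR+ cells. It was present in all 56 fibroblasts, and its pooled ratio was 237-fold (95% interval 226 to 249). Col3a1, the chain of type III collagen, stood at 9104, 10571 and 9108 CPM against 135, 231 and 230.0. The levels of the fibroblasts lay far above those of the LepR+ cells in every library for both genes.

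Fn1, fibronectin, was at 7356, 3728 and 6164 CPM in fibroblasts and at 26.5, 25.5 and 50.1 CPM in LepR+ cells, a ratio of 182-fold (169.5 to 195). Tnxb, tenascin X, which stabilises collagen fibrils, was at 1079, 1222 and 1029.7 CPM in fibroblasts, and each library's LepR+ cells were below 0.5 CPM. These genes were spread over the members: Fn1 was found in 53 fibroblasts and Tnxb in 52. Among the 20 were 6 further matrix genes: Fbln2 (an elastic fibre protein) at 508 to 774 CPM in fibroblasts, Col14a1 (a fibril-associated collagen) at 580.4 to 746, Aspn (asporin, a small proteoglycan) at 522 to 941, Ltbp4 (a latent TGF-beta binding protein) at 479 to 728, Pcolce2 (an enhancer of collagen propeptide cleavage) at 566 to 992, and Sparcl1 at 143 to 595. Levels of these 6 in LepR+ cells were under 5 CPM in every library.

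Antigens of progenitor-like fibroblasts formed a second group. Ly6a, the Sca-1 antigen, had a UMI in all 56 fibroblasts and stood at 1767, 1405 and 1262 CPM, against 3.43, 2.55 and 3.50 in LepR+ cells. Cd34, a sialomucin of stem and stromal cells, was at 646, 832 and 638 CPM against less than 1 CPM in each library, and Ly6c1 was at 685, 677 and 616. Ackr3, an atypical receptor that takes up Cxcl12, was at 512, 545 and 305 CPM in fibroblasts. In LepR+ cells Ackr3 was below 1 CPM in each library.

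The remaining genes of the 20 were of mixed kind. S100a6, a small calcium-binding protein, was at 9805, 8495 and 10181 CPM in fibroblasts against 149.8, 146 and 196, and S100a4 of the same family was at 2990.1, 1979 and 2219 against 8.41 and 7.74 in the LepR+ cells of WT and R76W and less than 30 in those of D130. Tppp3, a tubulin-binding protein that also marks tendon sheath cells, was in 55 fibroblasts at 786 to 1059 CPM. Myoc, myocilin, was in 22 of 56 fibroblasts at 1549, 723 and 573 CPM, with 3 UMIs in all LepR+ cells together. Ccn3, a matricellular protein, was in 40 fibroblasts at 424 to 642 CPM. Prg4, the lubricant lubricin, had a log2 ratio of 7.85 with an SD of 1.76 over the 3 libraries, the highest of the 20 on the CPM plus 10 scale, and is taken up below with the cells that held it.

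Against osteoblasts (312 cells with at least 20 Bglap plus Bglap2 and 50 Col1a1 UMIs per 10000, a class set after the data were seen), all 20 genes were again at least 2-fold higher in fibroblasts in each of the 3 libraries. Against osteoblasts, 1003 genes were called higher in fibroblasts and 324 lower. Of the 428 genes called higher against LepR+ cells, 313 were also called higher against osteoblasts. The lower genes carried over less often. Of the 12 genes with the lowest ratios, given below, 4 were at least 2-fold lower than in osteoblasts in each library: Hp, Tnc, Cdh2 and Spp1. Of the 940 genes called lower against LepR+ cells, 103 were also called lower against osteoblasts. No more than 324 could have been, so the 2 overlaps are not directly comparable.

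**Figure D2:**
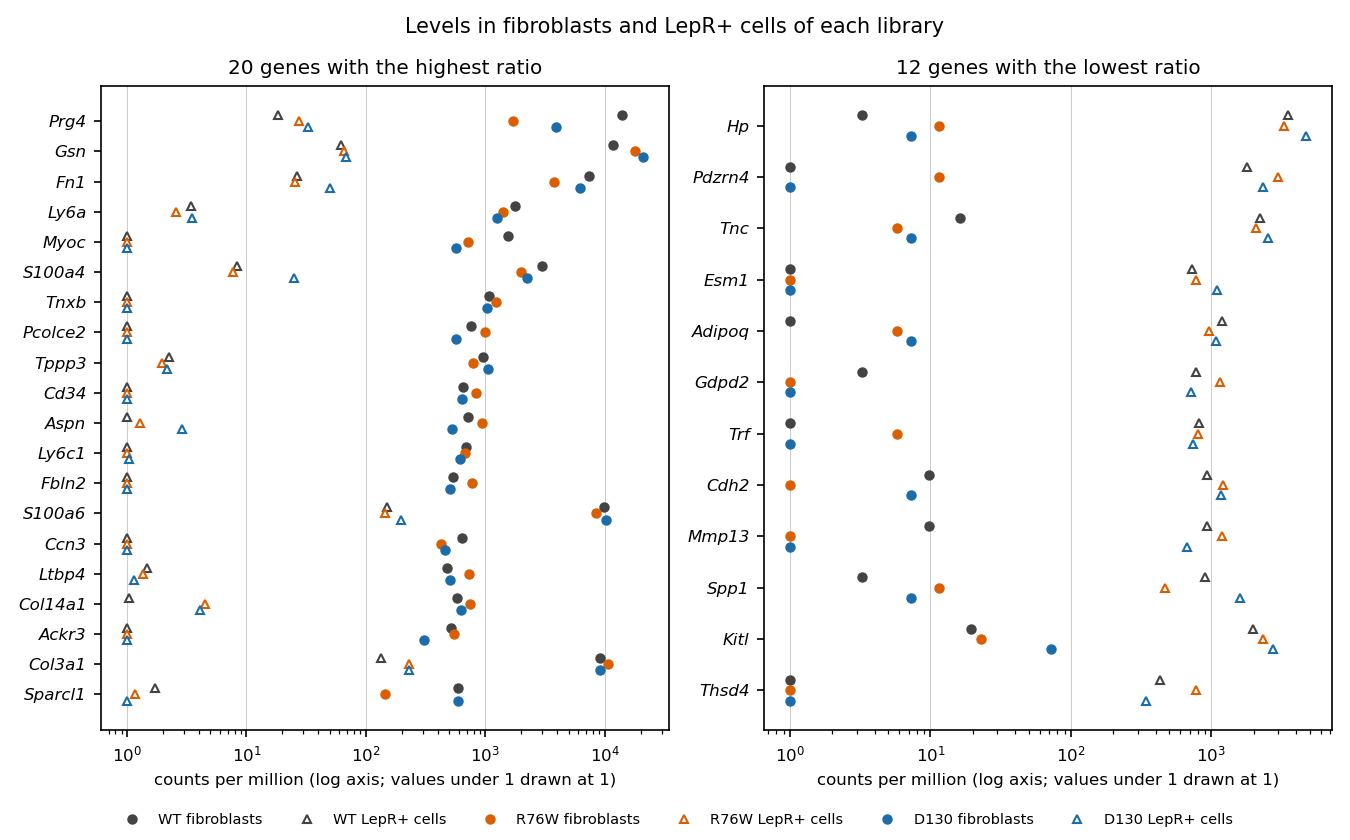
Levels of the 20 genes with the highest ratio (left) and the 12 with the lowest (right) in CPM on log axes, with filled circles for fibroblasts and open triangles for LepR+ cells of each library and values under 1 drawn at 1. For every gene the 3 circles and the 3 triangles do not overlap, and among the 20 highest the circles of Prg4 are the most widely spaced, from 1698 to 13858 CPM.

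The 12 genes with the lowest ratios included genes that define LepR+ cells. Kitl, the stem cell factor of the niche, was at 19.6, 22.9 and 72.5 CPM in fibroblasts and at 1985, 2326 and 2763 in LepR+ cells. Adipoq, adiponectin, had 2 UMIs in the fibroblasts and stood at 1197, 957 and 1072 CPM in LepR+ cells. Hp, haptoglobin, had 4 UMIs in the fibroblasts against 3516, 3297 and 4729.6 CPM. Esm1, an endothelial and stromal proteoglycan, and Thsd4, an ADAMTS-like microfibril protein, had none in the fibroblasts. Set against a floor of 3 UMIs over the 3 libraries, Esm1 was at least 177-fold and Thsd4 at least 106-fold higher in LepR+ cells.

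Tnc, tenascin C, was at 16.3, 5.74 and 7.25 CPM in fibroblasts and at 2234, 2073 and 2515 in LepR+ cells, so tenascin C and tenascin X were divided between the 2 classes. Mmp13, a collagenase, had 3 UMIs in 1 fibroblast against 931, 1199 and 665 CPM. Spp1 (osteopontin), Trf (transferrin), Cdh2 (N-cadherin), Gdpd2 and Pdzrn4 were each at 11.5 CPM or less in the fibroblasts of every library. Erythroid cells of the same libraries, which should not express these stromal genes, carried Kitl at 20.8 CPM, Hp at 46.0 CPM and Cxcl12 at 130 CPM. Fibroblast levels of Hp lay below, and those of Kitl in WT and R76W near, that background.

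Sequence just upstream of the start was examined for the genes called higher, as a description of their promoters. RefSeq promoters of GRCm38.p6 were searched for TATAAA, on the strand of the gene, beginning 50 to 11 bases before the start. Promoters were matched for 319 of the 428 genes called higher, and 4.70% of these genes held the motif. Among genes with a promoter, the share was 3.38% of 711 called lower, 1.60% of 10622 tested and 2.89% of all 27025. The reverse complement, TTTATA, was found in 1.25%, 0.703%, 0.555% and 1.10% in the same order. Of the 20 genes with the highest ratios, 13 had an entry, and Myoc and S100a4 held TATAAA in the window. The Ackr3 sequence held it nearer the start, outside the window. The last 100 bases before the start are shown for Myoc and S100a4, the matches in the window among the 20. The motif is in capitals. Dpt, a marker of the rule with no match in the window, is shown beside them.
Myoc, chr1:162639050-162639149, plus strand: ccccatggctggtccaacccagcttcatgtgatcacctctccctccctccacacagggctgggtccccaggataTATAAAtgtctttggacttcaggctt
S100a4, chr3:90603670-90603769, plus strand: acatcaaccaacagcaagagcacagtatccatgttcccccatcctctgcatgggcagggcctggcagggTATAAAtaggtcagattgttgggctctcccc
Dpt, chr1:164796563-164796662, plus strand: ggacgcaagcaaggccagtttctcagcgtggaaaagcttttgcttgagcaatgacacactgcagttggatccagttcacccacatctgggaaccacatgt
The motif began at base -26 in Myoc and at base -31 in S100a4. A match is a description of the letters and says nothing about use of the site.

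Gene lists describe the fibroblasts by function, and each list's count is read against the 3.04% and 6.69% of all tested genes. Fibrillar and fibril-associated collagens had 7 of 14 genes higher and 2 lower, with a median log2 ratio of 1.47. Besides Col3a1 and Col14a1, Col1a1 was at 2876, 3648 and 2886 CPM against 902, 430.1 and 337, and Col6a3 was at 1004, 855 and 1334 against 38.1, 52.0 and 61.3. The exceptions were Col8a1, with a log2 ratio of -3.14, and Col12a1, with -1.57.

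Genes of basement membranes, the sheets that surround vessels, nerves and fat cells, had 7 of 13 higher and none lower (median 1.52). Lama2, a laminin chain, was at 401, 349.9 and 369.8 CPM against 51.3, 66.4 and 44.5, and Nid1, nidogen, at 688, 883 and 616 against 134, 198 and 187. Hspg2 (perlecan) and Col4a5 had log2 ratios of 2.19 and 3.11. The main type IV collagen chains, Col4a1 and Col4a2, were not called, with log2 ratios of 0.48 and 0.58.

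Elastic fibre and microfibril genes were divided, with 6 of 16 higher and 3 lower (median 0.57). Higher were Eln (elastin), Fbln2, Ltbp4, Efemp1, Emilin2 and Adamtsl4, and lower were Fbln5, Ltbp2 and Fbn2. Fbln5, a fibulin that organises elastin, was at 65.2, 143 and 36.3 CPM in fibroblasts against 712, 1009 and 743. Family members thus lay on opposite sides, Fbln2 against Fbln5 and Ltbp4 against Ltbp2.

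Of 9 small leucine-rich proteoglycans, which coat collagen fibrils, 4 were higher and none lower (median 1.14). Dcn, decorin, was at 9978, 12774 and 8724 CPM against 335, 423 and 244, and Lum, lumican, at 1027, 1801 and 1226 against 119, 146 and 66.5. Genes of collagen processing and crosslinking had 2 of 14 higher, Pcolce2 and Sparc, and 2 lower, Lox and Adamts2 (median 0.60). Lox, a cross-linking oxidase, was at 45.6, 138 and 21.8 CPM in fibroblasts and at 298, 416 and 279 in LepR+ cells.

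Other adhesive matrix had 8 of 17 genes higher and 2 lower (median 1.13). Next to Fn1 and Tnxb these included Vcan (versican), Postn (periostin), Tgfbi, Thbs3 and the hyaluronan synthases Has1 and Has2, and the lower genes were Tnc and Ccn5. Among proteases and their inhibitors 7 of 19 were higher and 5 lower (median 0.81). Mmp2, a gelatinase, was at 359, 677 and 486 CPM against 23.0, 30.9 and 18.2, and Timp2, its inhibitor and partner in activation, at 1272, 1572 and 1255 against 225, 262 and 247. Serpine2, a thrombin inhibitor, lay the other way, at 398, 1159 and 479 against 2946, 3333 and 2479.9.

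Secreted signals were mostly not higher. Of 9 blood niche factors none was higher and 7 were lower (median -2.63), with Vcam1 at 32.6, 28.7 and 102 CPM against 1255, 1322 and 1936. Ptn, pleiotrophin, was uncalled in that list, at 192, 138 and 435 CPM against 37.9, 66.4 and 8.14. Chemokines and cytokines had 1 of 17 higher and 7 lower (median -0.95). The one higher, Ccl11 (eotaxin), was in 19 fibroblasts at 323, 149 and 225 CPM, with no UMI in any LepR+ cell.

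IGF ligands and binding proteins had none of 11 higher and 3 lower, Igfbp3, Igfbp4 and the IGFBP-cleaving protease Pappa (median -0.64). Igfbp6, the family member used by the rule, is not in that count. Igfbp4 was at 518, 665 and 486 CPM in fibroblasts and at 3751, 3264 and 3207 in LepR+ cells, while Igf1 was uncalled at 303, 413 and 319 against 496, 500.2 and 468.

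Wnt ligands and inhibitors had 2 of 10 higher and 2 lower. Dkk2, a Wnt inhibitor, was at 267, 373 and 399 CPM in 16 fibroblasts against 2.27 CPM or less, and Wnt11 at 22.8, 40.2 and 29.0. Wif1, another inhibitor, had no UMI in the fibroblasts, which allows up to 4.85 CPM, and stood at 217, 143 and 171 CPM in LepR+ cells. Rspo3, an enhancer of Wnt signals, was the other lower gene.

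TGF-beta and BMP genes had 2 of 20 higher and 6 lower (median -0.23). Nbl1, a BMP antagonist, was in 52 fibroblasts at 701, 688 and 471 CPM against 4.89, 7.64 and 6.59. Grem1, a different BMP antagonist, had no fibroblast UMI and 198, 385 and 356 CPM in LepR+ cells, and Chrdl1 had a log2 ratio of -5.05. Complement genes had 1 of 12 higher, Cd55, which speeds the decay of complement convertases, and 2 lower, C2 and C4b (median -0.51). Interferon-response genes had none of 12 higher and 5 lower (median -1.42), Isg15 and Irf7 among them.

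The sort antigens were partly seen in the RNA. Pdgfra, the antigen PDGFRα, was in 53 of 56 fibroblasts at 466, 608 and 500.4 CPM, close to the 367, 549 and 442 of LepR+ cells and uncalled. Itgav, the integrin chain CD51, was in 36 fibroblasts at 134, 97.5 and 145 CPM, and Pecam1 (CD31) in 4. Of 17 surface genes, 4 were higher, Ly6a, Cd34, Thy1 and the tetraspanin Cd9, and 6 were lower, Lepr among them. Thy1, the CD90 antigen, was at 232, 138 and 232 CPM against less than 0.2 CPM in LepR+ cells. Among the 6 lower, Pdgfrb was at 127, 120.5 and 145 CPM against 502, 601 and 684, and Lifr, the receptor for leukaemia inhibitory factor, had a log2 ratio of -4.87.

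Transcription factors of mesenchyme had 8 of 25 higher and 5 lower (median 0.23). Creb5 was at 365, 815 and 877 CPM against 3.35, 10.7 and 2.99, Klf4 at 469.5, 774 and 747 against 34.4, 35.2 and 37.1, and Meox2, Osr1, Osr2, Aebp1, Klf2 and Nfix completed the higher group. Snai2, Zeb2, Foxp1, Foxp2 and Tcf7l2 were lower. None of 13 genes of a limb position list, mostly Hox genes, was called in either direction, with log2 ratios from -1.01 to 0.83. Prrx1, a limb mesenchyme factor, was at 352, 717 and 428 CPM and uncalled.

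Gja1, which encodes connexin 43, was lower in fibroblasts, at 42.4, 189 and 116 CPM against 676, 1184 and 1195 in LepR+ cells. It had a UMI in 31 of 56 fibroblasts, and erythroid cells carried 9.25 CPM. Since the transgenes act in osteocytes, its level here does not check the genotype labels. Gjc1 (connexin 45) was the other lower gene of 5 connexins and pannexins, and none was higher. In the prostaglandin list, 2 of 11 genes were higher, Ptgs1 (cyclooxygenase 1) at 16.3, 86.0 and 43.5 CPM and the prostacyclin receptor Ptgir, and 1 was lower, the prostaglandin F receptor Ptgfr. Of 14 immediate early genes, which respond to cell dissociation, 1 was higher, Atf3, and none lower (median -0.03).

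**Figure D3:**
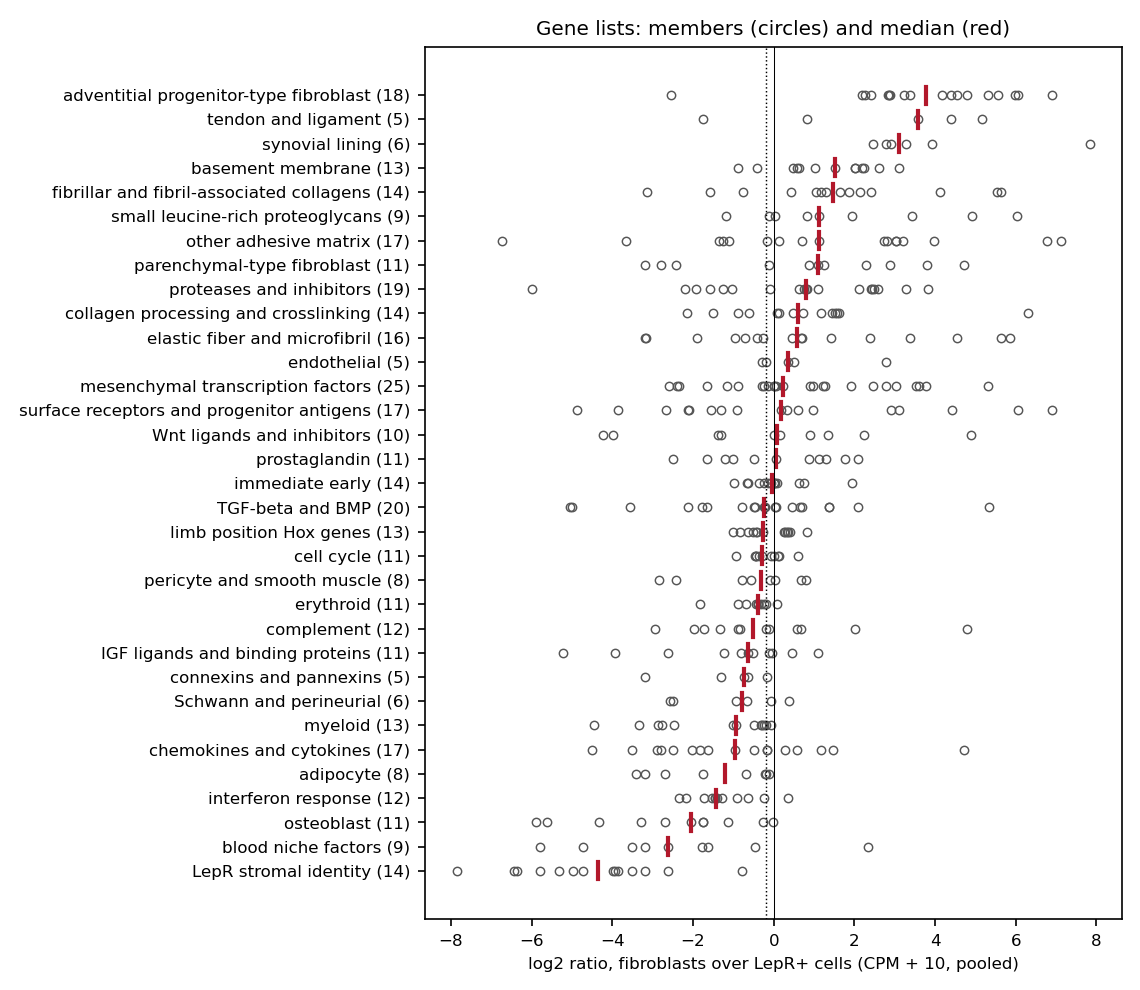
Log2 ratio of fibroblasts over LepR+ cells (x axis, CPM plus 10, pooled) for the measured genes of each list with at least 5 of them, with circles for genes, a red bar for the median, a solid line at 0 and a dotted line at the median of all tested genes, -0.18. The adventitial progenitor-type list lies farthest to the right with a median of 3.78 and the LepR stromal identity list farthest to the left with -4.35, while the Hox and immediate early lists lie around 0.

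Markers of the other stromal classes of these libraries were mostly lower in fibroblasts than in LepR+ cells. LepR stromal identity genes had none of 14 higher and 13 lower (median -4.35), or 12 of 13 lower (median -4.72) without Lepr, whose difference the choice of the LepR+ cells fixes. Ebf1 was the one uncalled, at 1454, 1996 and 1624 CPM against 2480.2, 3241 and 2789.5, while its paralog Ebf3 was at 22.8, 74.6 and 50.8 against 1640.2, 2393 and 2448. Osteoblast genes had none of 11 higher and 6 lower (median -2.06), with Runx2 at 16.3, 45.9 and 29.0 CPM, near the 20.5 CPM of erythroid cells, and Sp7 and Dmp1 at 0 UMIs. Adipocyte genes had none of 8 higher and 3 lower (median -1.22). The rule divided the classes by Cxcl12 as well as Lepr, and kept Ibsp low in the fibroblasts. The lower calls in these stromal lists were therefore not independent of the choice of cells.

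Vessel, nerve, muscle and blood markers were largely at or near 0. Acan, Col2a1, Col9a1 and Matn3 of cartilage, Sox10, Cldn1 and Itgb4 of nerve sheaths, Pax7, Myf5 and Myod1 of muscle, Kdr, Flt1, Tie1 and Egfl7 of endothelium, all 5 mesothelial genes and 7 of 8 lymphoid genes had no fibroblast UMI. No gene of the muscle, mesothelial and lymphoid lists reached 30 UMIs over both classes. Members had no Ptprc UMI by the rule, so the blood cell markers were not independent of the choice of members. Tek, an angiopoietin receptor best known in endothelium, was called higher and was in 25 fibroblasts at 52.2, 97.5 and 43.5 CPM. Smooth muscle genes were sparse, with Acta2 in 2 cells and Myh11 in 1. No gene was called higher among 8 pericyte and smooth muscle, 6 Schwann and perineurial, 2 chondrocyte, 13 myeloid, 11 erythroid and 11 cell cycle genes, with 2, 2, 0, 2, 2 and 0 called lower. The WT cell with the most hemoglobin also held 13 Mki67 and 18 Top2a UMIs, genes of dividing cells. Hemoglobin summed over cells was dominated by the WT cell described above, which held 97.4% of the WT Hba-a1 UMIs.

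Matrix genes associated with tendon were found in more fibroblasts than Scx, Tnmd and Mkx. Cilp, a cartilage intermediate layer protein, was in 23 fibroblasts at 365, 447 and 196 CPM, and Thbs4, thrombospondin 4, in 13 at 196, 184 and 232. Comp, cartilage oligomeric matrix protein, was in 15 at 218, 413 and 935 CPM. In D130, Comp was in 3 cells, and 1 of them held 78.3% of its UMIs. In WT, 1 cell held 52.2%. LepR+ cells had no Thbs4 UMI and 3 Cilp UMIs. Scx and Tnmd, which define tendon cells, were in 3 fibroblasts each and Mkx in 1. The 3 genes Comp, Thbs4 and Cilp were called higher and Mkx lower, of 5 measured genes in that list (median 3.57).

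The genes of 2 lists divided the fibroblasts among themselves. Against LepR+ cells, the adventitial progenitor-type list had 17 of 18 genes higher and 1, Limch1, lower (median 3.78). The choice of members was not independent of this list. Pi16, a gene of the rule, marks the same state. The rule genes Clec3b, Mfap5, Cd248 and Igfbp6 rose with the list within the fibroblasts, as given below. Dpp4, a surface peptidase, was at 176, 229 and 131 CPM, Cd55 at 469.5, 895 and 682, and Sema3c, a secreted semaphorin, at 274, 436 and 341. The parenchymal-type list had 5 of 11 higher, Col15a1, Penk, Smoc2, Enpp2 and Mgp, and 3 lower, Lpl, Cxcl14 and Gpx3 (median 1.09). Col15a1, a collagen of basement membrane zones, was at 248, 258 and 334 CPM against about 1 CPM or less, whereas Lpl, lipoprotein lipase, was at 169.6, 247 and 428 against 1947, 2308 and 2864.

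Within the fibroblasts, cells rich in the first list were poor in the second. Each cell was drawn down to 3000 UMIs, and its UMIs of each list were summed. The adventitial sum ran from 2 to 65 with medians of 18.5, 21 and 20 for the cells of WT, R76W and D130, and the parenchymal sum ran from 0 to 95 with medians of 6, 7 and 11. The ranges of the 3 libraries overlapped for both sums.

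Spearman's correlation of the 2 sums over the 56 cells was -0.68, and it was -0.70 in WT (28 cells), -0.70 in R76W (17 cells) and -0.74 in D130 (11 cells). The cells share libraries and the sums share a fixed total, so these are descriptions. The parenchymal sum correlated at -0.30 with the UMIs of the cell before thinning and the adventitial sum at 0.06. Without thinning, as shares of all UMIs, the correlation of the sums was -0.69. In 35 cells the adventitial sum was the larger, and in 21 the parenchymal sum was. The lists hold 18 and 11 genes and the rule favours the first, so this split does not measure how common each state is.

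Mgp, an inhibitor of calcification, made up 58.8% of the parenchymal UMIs. Without it the correlation of the sums was -0.55 over the 56 cells and -0.55, -0.50 and -0.69 within WT, R76W and D130. Leaving out any other gene of either list, singly, gave values no weaker than -0.55 over the 56 cells. Of 17 adventitial genes found in at least 10 thinned cells, 16 correlated negatively with the parenchymal sum, the exception being Cd34 at 0.01, and the count was 16 again without Mgp in that sum. All 9 parenchymal genes had negative values with the adventitial sum, down to -0.03 for Gpx3 and -0.04 for Podn at the weak end. The strongest adventitial genes were Creb5 (-0.68 with the parenchymal sum), Ugdh, which makes a building block of hyaluronan (-0.64), and Ackr3 (-0.64). On the other side, Mgp correlated at -0.64 with the adventitial sum and Col15a1 at -0.41.

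Genes outside both lists, 13 of them examined, differed in how they related to the sums. Fn1 correlated at 0.64 with the adventitial and -0.79 with the parenchymal sum (-0.63 without Mgp), and Pcolce2 at 0.62 and -0.48. Gsn lay on the other side, with -0.09 and 0.43, and so did Myoc, with -0.18 and 0.38. Col3a1 (-0.03 and 0.04), Prg4 (-0.20 and 0.06), Aspn (-0.09 and 0.17), Fos (0.09 and -0.14) and Pdgfra (-0.01 and 0.24) followed neither clearly. Among the genes of the rule, Clec3b, Mfap5, Cd248 and Igfbp6 had positive correlations of 0.30 to 0.48 with the adventitial sum and Dpt had -0.17.

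**Figure D4:**
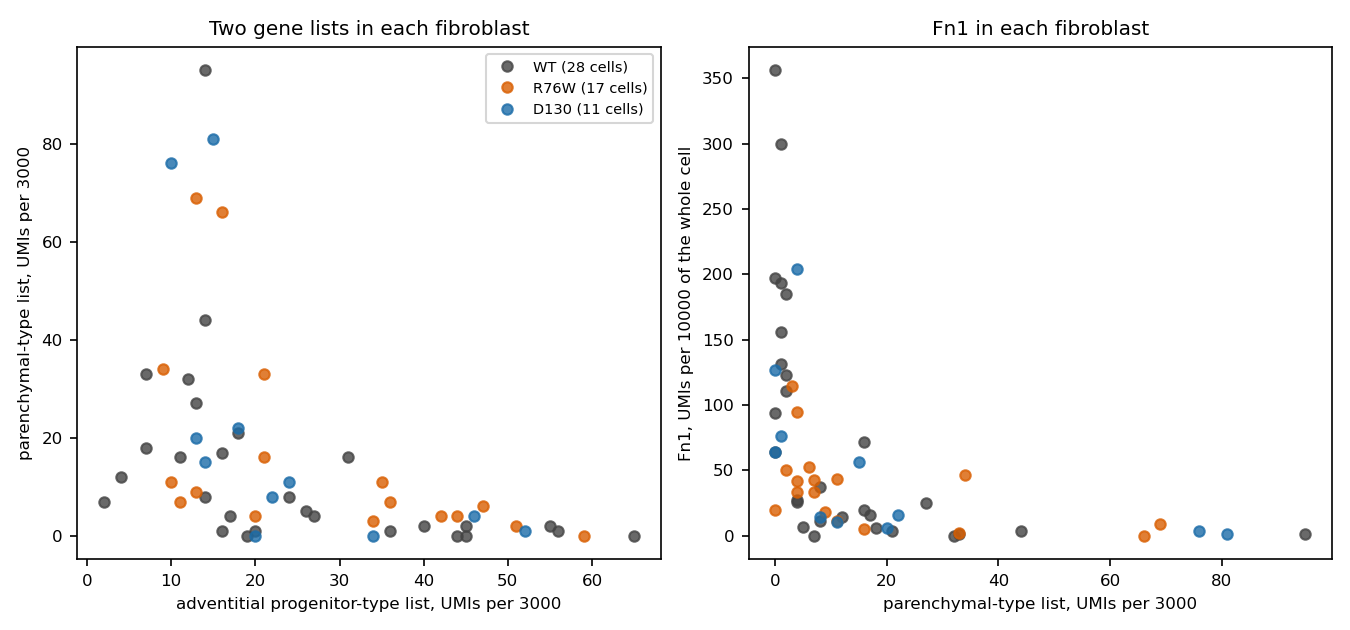
Each point is 1 of 56 fibroblasts drawn down to 3000 UMIs and coloured by library, with the adventitial list sum against the parenchymal list sum (left) and the parenchymal list sum against Fn1 (right), with list sums in UMIs per 3000 and Fn1 in UMIs per 10000 of the whole cell. Cells with high parenchymal sums have low adventitial sums and few Fn1 UMIs, and each library has cells at both ends.

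Prg4 and the genes of the synovial lining, the cell layer that faces the joint space, were held by a few fibroblasts. Prg4 had a UMI in 29 of 56 cells, 17 in WT, 6 in R76W and 6 in D130. Its median per 10000 UMIs was 2.01, 0 and 0.885 in the cells of WT, R76W and D130, while single cells reached 1400, 143 and 188. In WT, 2 cells with 2063 and 1859 Prg4 UMIs and, in D130, 1 cell with 470 also had UMIs of all 5 other lining genes, Htra4, Clic5, Tspan15, Col22a1 and Hbegf. These 3 cells held 92.3% of the Prg4 UMIs in WT and 86.9% in D130, and Fn1 was high in each, at 285, 528 and 317 UMIs. One of the 2 WT cells was the other doublet call.

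Without these 3 cells, Prg4 stood at 1184 CPM in WT, 1698 in R76W and 629 in D130. LepR+ cells had 18.5, 27.6 and 32.5 CPM. In R76W, 1 further cell held 215 Prg4 UMIs, 72.6% of that library's, with none of the other lining genes. When the highest remaining cell of each library was also left out, the levels were 659 CPM in WT, 508 in R76W and 462 in D130. The order of the libraries thus changed with single cells, while the fibroblasts of each library stayed above the LepR+ cells. R76W had no cell with all 5 other lining genes among 17 fibroblasts.

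Differences between genotypes within the fibroblasts rested on 28, 17 and 11 cells of 1 library each, so no test was possible. A gene is called here when it differed at least 2-fold on the CPM plus 10 scale and its exact Poisson 95% intervals did not overlap, among 3528 genes with at least 30 UMIs over the fibroblasts. Against WT, 129 genes were higher in R76W (3.66%) and 97 lower (2.75%), and 92 were higher in D130 (2.61%) and 84 lower (2.38%). Over the same genes, LepR+ cells had 0.255% higher and 4.85% lower in R76W and 0.283% higher and 2.15% lower in D130. The LepR+ sums of WT, R76W and D130 held 11652036, 10205813 and 9705634 UMIs from 1542, 1164 and 1048 cells. The fibroblast sums held far fewer UMIs and cells, so the shares of the 2 classes are not directly comparable. R76W and D130 share the WT library as their control.

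The WT cell with erythroid RNA and single cells carried much of these counts. Without that cell, 95 genes were higher and 63 lower in R76W, and 71 higher and 49 lower in D130, with 50 and 37 of the original lower calls among them. When the cell with the most UMIs of each gene was left out in each library, 77 were higher and 65 lower in R76W, and 26 higher and 68 lower in D130. All 5 measured erythroid genes were lower in R76W and in D130, and without the hemoglobin-rich cell none of the 5 was called in R76W and only Hbb-bt in D130. The log2 ratio of Hba-a1 in R76W, for example, was -0.74 in place of -5.50. In LepR+ cells Hbb-bs stood at 4068 CPM in WT against 449 and 338. The part of hemoglobin RNA in the other calls was not tested.

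Opcml, a neural cell adhesion protein, had the highest log2 ratio in both comparisons among called genes with a UMI in at least 30% of the cells of the higher library. It stood at 3.26 CPM in WT, 206 in R76W and 196 in D130, with a UMI in 1 of 28, 10 of 17 and 6 of 11 cells. LepR+ cells had 0.601, 0.490 and 2.06 CPM. Leaving out the top cell of each library left log2 ratios of 3.99 in R76W and 3.81 in D130, and no single R76W or D130 cell held more than 33.3% of its UMIs.

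Hoxa10, a limb position gene, was at 26.1 CPM in WT, 189 in R76W and 58.0 in D130, with a UMI in 7, 12 and 6 cells, a 7.26-fold ratio of R76W to WT (95% interval 3.29 to 18.2). Ldb2, a cofactor of LIM proteins, was at 19.6, 155 and 123 CPM. Ppp2r2b, a phosphatase subunit, was at 9.78, 206 and 58.0 CPM, and 1 cell held 58.3% of its R76W UMIs. Eln, elastin, was at 65.2, 746 and 79.8 CPM, but 1 cell held 86.2% of the R76W UMIs, and without the top cells its log2 ratio was 1.30 in place of 3.33.

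Among called genes other than hemoglobin, ribosomal and mitochondrial ones with a UMI in at least 30% of the WT fibroblasts, the 5 lowest in R76W were Hmgb2, Prg4, Blvrb, Ndufa4l2 and Slc25a39. Hmgb2, a chromatin protein of dividing cells, stood at 609.7, 5.74 and 50.8 CPM, with 89.8% of its WT UMIs in 1 cell, and without the hemoglobin-rich cell its log2 ratio was -2.37 in place of -5.30 in R76W and -0.42 in place of -3.35 in D130. Blvrb, a heme catabolism enzyme, was at 551, 74.6 and 181 CPM and at 555, 68.3 and 96.0 in LepR+ cells. In the fibroblasts 1 cell held 66.9% of the WT Blvrb UMIs, and without the hemoglobin-rich cell the log2 ratio was -1.38 in place of -2.73. Ndufa4l2, a mitochondrial protein, was at 127, 17.2 and 87.0 CPM, and Slc25a39, a mitochondrial carrier, at 91.3, 11.5 and 29.0.

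In D130, with a UMI in at least 30% of its fibroblasts, the called genes highest after Opcml were Mmp3, Sema3a, Maml3 and Mmp16. Mmp3, stromelysin 1, was at 13.0, 34.4 and 152 CPM, with a UMI in 4 of 11 D130 cells. Sema3a, a secreted semaphorin, was at 58.7, 34.4 and 348 CPM, but 1 cell held 93.8% of the D130 UMIs, and without the top cells the log2 ratio turned from 2.38 to -0.53. Maml3, a Notch coactivator, was at 32.6, 68.8 and 210.3 CPM with a UMI in 8 of 11 cells, and Mmp16, a membrane-bound protease, at 19.6, 40.2 and 138. For lower genes the limit was a UMI in at least 30% of the WT fibroblasts. Within it, the lowest genes after Hmgb2 were Gadd45g, Cpox, Smarcc2 and Ssbp3, each with 1 or 2 UMIs in D130. Their levels without the hemoglobin-rich WT cell are not given here.

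**Figure D5:**
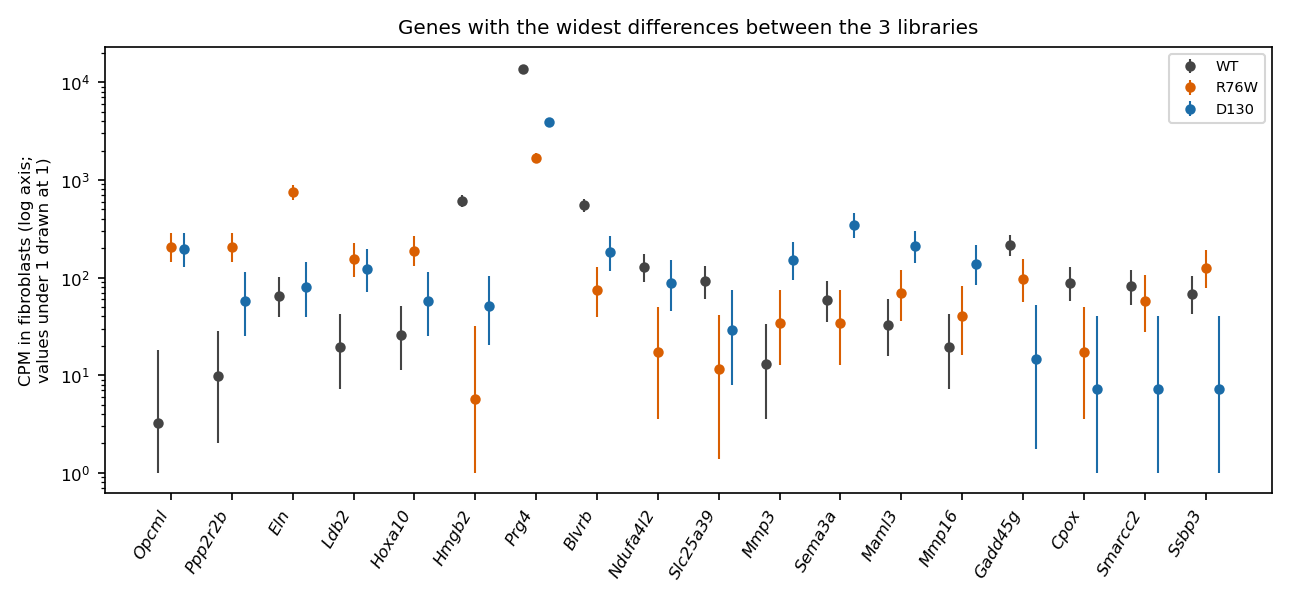
Level in CPM (y axis, log, values under 1 drawn at 1) of the genes with the widest differences between genotypes, in the summed fibroblasts of each library with exact Poisson 95% intervals that cover counting error only. Opcml lies near 200 CPM in R76W and D130 and at 3.26 in WT, and Hmgb2, Blvrb and Prg4 are highest in WT.

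Of 9 measured complement genes, 4 were called higher in R76W and none lower, against 3.66% and 2.75% of all genes. Among them, C1s1, a protease of the classical pathway, stood at 173 CPM in the WT and 419 CPM in the R76W fibroblasts, Serping1, the C1 inhibitor, at 609.7 and 1233, and C3, the central component, at 147 and 309.7. C3 and Serping1 were no longer called without the hemoglobin-rich cell. Igfbp5, an IGF-binding protein, stood at 1992 CPM in WT fibroblasts, 5105 in R76W and 2988 in D130, with a UMI in 24 of 28 WT and 14 of 17 R76W cells, and at 7785, 8105 and 5955 CPM in LepR+ cells. Scara5, a ferritin receptor of adventitial fibroblasts, was at 189, 694 and 392 CPM in the 3 libraries and was found in 16 of 28, 15 of 17 and 9 of 11 cells. Gja1 was called in R76W, at 189 CPM against 42.4 in WT (4.47-fold, 2.29 to 9.24), and not in D130, at 116; whether R76W and D130 differ was not tested.

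The synovial lining list, with 1 of 6 genes (Prg4) called higher against LepR+ cells, had all 6 lower in R76W and 2 lower in D130, Prg4 and Htra4. As given above, cells with the full set of these genes were 2 in WT and 1 in D130. The share of all genes called lower was 2.75% in R76W and 2.38% in D130. None of 11 collagen and 12 basement membrane genes was called in either comparison, which is near those shares.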

How the data were processed

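Single-cell 3' RNA libraries (10x Genomics v3) of sorted marrow cells were made from WT, R76W and D130 mice, 1 library each. The authors deposited raw UMI counts per gene and barcode, made with Cell Ranger 7.0.1 per the file headers, on build mm10 and with Seurat also named per the submitters' processing notes; further filters of barcodes are not given in the sources used here. Of 14914 barcodes 8336 were kept. Duplicate symbols were summed (32285 identifiers, 32245 symbols). Counts of a class were summed per library and scaled to CPM, with a pseudocount of 10 CPM for ratios. Intervals are 95% exact Poisson, Clopper-Pearson or conditional binomial. Doublets (Scrublet in scanpy 1.11.5) were kept and removed as an alternative; in WT the automatic threshold marked none, so the 3.50% of cells with the highest scores were taken. Cells were thinned to 3000 UMIs for shares and sums. The calling steps were tried on simulated Poisson counts without differences between cells. That trial cannot show how the calls behave for genes held mostly by single cells. No test between samples was possible.

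Named genes were the 20 highest and 12 lowest pooled ratios among called genes with at least 50 UMIs in the higher class and a UMI in 25% of its cells in each library, without mitochondrial, ribosomal and hemoglobin genes; the markers and excluding genes of the rule; members of the gene lists; and the 5 highest and 5 lowest ratios of each genotype among called genes with a UMI in 30% of the fibroblasts of the higher library. The members and lists were chosen with earlier results of these data known, and some list members given with values were picked after those were seen. The osteoblast class, the sums without Mgp, the lists without Lepr, the removal of the top cell and the removal of hemoglobin-rich cells for genotypes were added after seeing the data. Promoters and the positions printed with them are RefSeq, GRCm38.p6. Some list genes are not reported here.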

Additional observations from a re-analysis of the deposited data

Results flagged for a closer look

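Prg4 differed between R76W and WT in opposite directions in the 2 cell classes, and this difference was not tested, since each genotype has 1 library. In fibroblasts its log2 ratio of R76W to WT was -3.02 and in LepR+ cells 0.40 (CPM plus 10 in both). The fibroblast value rests on the 2 WT cells that held 92.3% of the WT Prg4 UMIs: without the 3 cells that had all 5 other lining genes, the levels were 1184 CPM in WT and 1698 in R76W. In R76W, 1 other cell held 72.6% of the Prg4 UMIs, and with the highest remaining cell of each library also left out the levels were 659 and 508 CPM. In LepR+ cells the levels were 18.5 and 27.6 CPM.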

How the results depend on the processing

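The number of fibroblasts was 63 with at least 3 markers and 37 with at least 5, 54 without doublet calls and 55 at 5% mitochondrial UMIs. Against LepR+ cells, a pseudocount of 50 CPM gave 221 genes higher and 387 lower, a pseudocount of 1 CPM 2411 lower, a fold of 4 gave 187 higher and 284 lower, and osteoblasts as the comparison gave 1003 higher and 324 lower. With each library left out in turn, 478 to 531 genes were higher and 1182 to 1252 lower, with fewer libraries to satisfy. Between genotypes, genes higher in R76W were 68 at a pseudocount of 50 CPM, 65 with at least 5 markers, 76 without doublet calls and 77 without top cells; lower in R76W, 56 with at least 5 markers, 54 without doublet calls and 63 without hemoglobin-rich cells; higher in D130, 60 at a pseudocount of 50 CPM and 26 without top cells; lower in D130, 52 without doublet calls and 49 without hemoglobin-rich cells. The log2 ratio of Prg4 in R76W turned to 0.95 with at least 5 markers, and that of Sema3a in D130 to -0.61 with at least 5 markers and -0.53 without top cells; the cause was not tested beyond the cells named in the report. For single genes against LepR+ cells, 5108 values under alternatives stayed within the spread between libraries and 832 moved beyond it. No paired analysis was possible because each group has 1 library. Depth limits what can be seen: a count of 0 allows up to 9.78 CPM in WT, 17.2 in R76W and 21.8 in D130.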
